A study of Neurospora crassa with 112 samples.

Results

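The xylanases and the regulators of plant polysaccharide use of *Neurospora crassa*, a filamentous fungus that grows on dead plant matter, were followed across mycelial RNA-seq libraries. The 7 genes were chosen by name, with earlier results of these data known, and they are 7 of the 9733 genes in the table. They comprise 4 regulators, *clr-1* (NCU07705), *clr-2* (NCU08042), *xlr-1* (NCU06971) and *cre-1* (NCU08807), and 3 xylanases, *gh11-1* (NCU02855), *gh10-2* (NCU08189) and *gh10-1* (NCU05924). The libraries came from 112 strains, each titled a wild Louisiana isolate of *N. crassa*. The strains carry no engineered allele, as far as the labels say. Of these, 72 have JW names, 10 have D names and 30 have numbers of the Fungal Genetics Stock Center (FGSC). FGSC 2489, which bears the same title, is the laboratory strain behind the reference genome. All mycelia were harvested at 16 h, and per the study's Methods the cultures grew on cellophane laid on the minimal Bird medium. Each strain gave 1 library of polyadenylated RNA, so the strain, its culture and its library cannot be told apart in any value below. In 4 pairs of columns, which set D110 beside FGSC 4448, D111 beside FGSC 4449, D112 beside FGSC 4453 and D119 beside FGSC 4500, 87.1% to 89.5% of the values were identical, and in the next most alike pair 0% were. The columns of a pair differed by less than sampling noise and were counted as 1 library, which left 108 libraries, 72 JW and 36 D or FGSC (6 D and 30 FGSC).

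Xylan, the main hemicellulose of many plant cell walls, is a chain of xylose units, and endoxylanases such as those of the families GH10 and GH11 cut it inside the chain. In *N. crassa* the zinc cluster transcription factor XLR-1 is required for growth on xylan and xylose and for the induction of most hemicellulase genes, and CLR-1 and CLR-2, of the same protein class, are required for the induction of cellulase genes by cellulose, with *clr-2* itself induced through CLR-1. CRE-1 is a zinc finger repressor that keeps many genes for the use of less preferred carbon sources low while glucose or another preferred sugar is present. Cellophane is regenerated cellulose, and what the strains took from it was not measured in these data.

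Values are in RPKM, which corrects read numbers for gene length and sequencing depth. Recovered library totals ranged from 4174767 to 30748165 reads (median 18200892), with medians of 19835136 in the JW libraries and 11861308 in the D and FGSC libraries. At these depths 1 read in a gene is a value well below 1 RPKM, and 3 reads corresponded to 0.0344 to 0.253 RPKM for *xlr-1* and to 0.147 to 1.08 RPKM for the shorter *gh11-1*. The labelled tissue, mycelium, was set against 3 conidial genes that had a row (*con-6*, *con-10* and *eas*, of 4 listed). Their summed level ranged from 74.0 to 121989 RPKM across libraries, with medians of 2320 in the JW and 4518 in the D and FGSC libraries, and none of the 3 was at 0 in any library. Most of the sum was *eas*, with a median of 2753 RPKM over all libraries, against 180 for *con-6* and 13.1 for *con-10*. Over the 107 libraries other than JW160, this sum had a Pearson's r between -0.28 (*gh11-1*) and 0.23 (*clr-1*) with the 7 genes. The r of *con-10* alone ran from -0.30 (*gh11-1*) to 0.57 (*cre-1*), with 0.44 for *clr-1* and 0.40 for *gh10-2*. That of *con-6* ran from -0.24 (*gh11-1*) to 0.34 (*cre-1*). The part of the conidial genes in the results was not tested.

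One library, JW160, stood apart in these genes. Its total of 14195678 reads lay inside the range of the others, while its median correlation with the other libraries, 0.881 over all genes tested, was the lowest but one (JW234, 0.876). Levels, tests between series and correlations are therefore given with it and without it, a choice made after seeing the data.

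The 7 genes were expressed at widely different levels, and the regulators were mostly above the enzymes. Compared per length by their medians over 108 libraries, *cre-1* was highest at 135 RPKM, followed by *clr-1* at 17.6, *xlr-1* at 6.96, *gh11-1* at 3.61, *gh10-2* at 0.609, *clr-2* at 0.467 and *gh10-1* at 0.0725 RPKM. The median of *cre-1* was above those of 88.4% of all genes in the table, that of *clr-1* above 52.9%, and that of *gh10-1* above 9.85%. The first steps of this order held in every library, since *cre-1* exceeded *clr-1*, and *clr-1* exceeded *xlr-1*, in 108 of 108. *xlr-1* exceeded *gh11-1* in 83 of 108 libraries, with a difference of 0.66 at the median and an SD of 1.08 on the log2(RPKM + 1) scale, so these neighbours did not differ beyond their spread across strains. *gh11-1* exceeded *gh10-2* in 94 of 108 libraries. *gh10-2* and *clr-2* did not differ beyond their spread, since *gh10-2* was the higher in 65 libraries and the lower in 43. *clr-2* exceeded *gh10-1* in 94 of 108, with a difference of 0.47 at the median and an SD of 0.58. This SD includes JW160, where *gh10-1* was at 259 RPKM and *clr-2* at 14.1 RPKM, so it does not describe the spread of the other libraries.

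**Figure D1:**
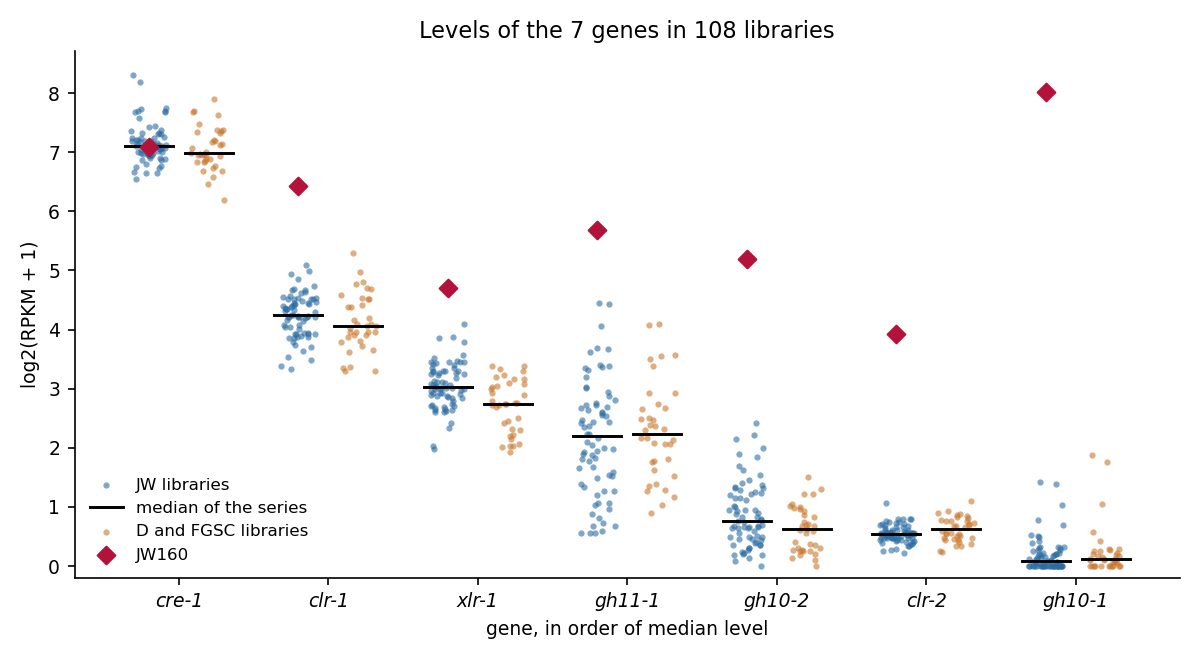
Level of each gene as log2(RPKM + 1) in each of 108 libraries, 1 point per library, with JW libraries on the left and D and FGSC libraries on the right of each gene, and black lines at the median of each series. The red diamond is JW160, which is the highest library for every gene but *cre-1*, where it lies at the median.

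Among the regulators, *cre-1*, and apart from JW160 also *clr-1*, kept within a narrow range. *cre-1* was lowest in FGSC 4452 at 72.1 RPKM and highest in JW224 at 315 RPKM, a 4.36-fold range, and 106 of 108 libraries lay within 2-fold of the median. JW234 (291 RPKM) and FGSC 4457 (237 RPKM) came next below JW224. In the 6 D libraries *cre-1* lay between 95.2 and 122 RPKM, all below the FGSC median of 136 RPKM, a difference that was not tested. It depends on how libraries were named, since the 4 merged pairs bear D names too but were counted as FGSC. Their *cre-1* was at 128 (D110), 144 (D111), 159 (D112) and 164 RPKM (D119). In *clr-1* the lowest library was FGSC 4483 at 8.86 RPKM and the highest JW160 at 84.9 RPKM, and without JW160 the highest was FGSC 4469 at 38.2 RPKM. With JW160 left out, *clr-1* had a 4.31-fold range and lay within 2-fold of its median in 106 of 107 libraries. *xlr-1* ran from 2.83 RPKM in FGSC 4472 to 25.2 RPKM in JW160, or to 16.2 RPKM in JW254 without JW160, followed by JW218 (13.7 RPKM) and JW206 (13.4 RPKM). Its level was within 2-fold of the median in 98 of 107 libraries.

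*clr-2* was low in all libraries but 1. It had 2 to 47 reads per library (median 20) outside JW160, which gave 0.169 RPKM in the lowest, JW168 (0.182 RPKM in the next, D116), and 1.15 RPKM in the next highest, FGSC 4453/D112, and it exceeded 1 RPKM in 2 of these 107 libraries. Its reads fell outside the central 95% Poisson range expected from its pooled level in 16 of 107 libraries, where counting error alone would leave about 5.35. For *clr-1* this number was 86, for *xlr-1* 77 and for *cre-1* 93 of 107. The regulators differ in read number, with medians of 20 reads for *clr-2* and 704, 371 and 3161 reads for *clr-1*, *xlr-1* and *cre-1*, and a lower read number makes the same spread harder to see. These ranges cover counting error only, since reads made by PCR are not independent molecules.

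*gh11-1* had the widest range of the 7 genes apart from those listed at 0 in some libraries. It was detected in every library, from 0.465 RPKM in JW256 (7 reads, 95% Poisson interval of 0.187 to 0.959 RPKM) to 20.9 RPKM in JW199 and 50.2 RPKM in JW160. JW176 (20.5 RPKM), FGSC 4470 (16.0 RPKM) and FGSC 4453/D112 (16.0 RPKM) were close to JW199, so high *gh11-1* was found in both series. Without JW160 its range was 44.9-fold, and 62 of 107 libraries lay within 2-fold of the median. *gh10-2* was at 0 in FGSC 4450 and JW242, where the interval for 0 reads reached 0.253 and 0.223 RPKM, and it was highest after JW160 in JW224 at 4.33 RPKM, JW220 at 3.65 RPKM and JW168 at 3.42 RPKM. JW168 was left out of the study's phylogeny because its classification was in doubt. *gh10-1* was listed at 0 in 41 libraries and had a median of 1 read. After JW160 its highest libraries were FGSC 4487 (2.66 RPKM, 48 reads), FGSC 4496 (2.41 RPKM, 20 reads), JW70 (1.68 RPKM, 15 reads) and JW190 (1.61 RPKM, 29 reads). The reads of *gh11-1*, *gh10-2* and *gh10-1* lay outside the Poisson range in 73, 57 and 26 of 107 libraries. Apart from JW160, the 7 genes thus peaked in 6 different libraries, and JW224 was the only one of these to hold the highest value of more than 1 gene (*cre-1* and *gh10-2*).

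In JW160 the xylanases and the activators were high together. *gh10-1* reached 259 RPKM from 3644 reads (95% Poisson interval of 251 to 268 RPKM), 97.6-fold above the next library, while the other 107 libraries held 341 reads of this gene between them. *gh10-2* was at 35.5 RPKM (32.7 to 38.5), 8.20-fold above the next library. *gh11-1* was at 50.2 RPKM (45.7 to 54.9), 2.40-fold above the next. Among the activators, *clr-2* was at 14.1 RPKM (489 reads, 12.9 to 15.4), 12.3-fold above the next, *clr-1* at 84.9 RPKM (81.7 to 88.3), 2.22-fold above the next, and *xlr-1* at 25.2 RPKM (23.6 to 26.8), 1.56-fold above the next. For these 6 genes the interval of JW160 lay above that of the next library. The repressor gene *cre-1* was at 135 RPKM in JW160, the 54th highest of 108 and 0.00 from the median of the others on the log2(RPKM + 1) scale.

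These counts can be read against all genes, with the limit that the 7 genes were chosen with earlier results of these data known. Of the 7 genes, 6 had their highest value in JW160, against 7.44% of the 9696 genes above 0 (721 genes). For 3 of the 7 (*clr-2*, *gh10-2* and *gh10-1*) RPKM + 1 in JW160 was at least 4-fold above that of the next library, against 0.351% of all genes (34 genes). JW160 is 1 library of 1 strain, so no test was made and no replicate shows whether the pattern belongs to the strain or to this culture. The summed conidial genes stood at 2201 RPKM in JW160, near the median of the other libraries, 3070 RPKM.

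The other genes of polysaccharide use shared the peak in JW160, with exceptions. The lists here hold genes of *N. crassa* known to act in each process, and several have no symbol in the annotation and are given by their NCU number only. The lists too were chosen with earlier results of these data known. Of 12 genes of cellulose degradation and cellodextrin transport, 11 had their highest value in JW160 and 9 were at least 4-fold above the next library in RPKM + 1. The 4 with the highest medians were *gh1-1*, an intracellular β-glucosidase (66.7 RPKM at the median and 347 in JW160), *gh3-3*, another β-glucosidase (31.7 and 156), *cbh-1*, a cellobiohydrolase (10.6 and 1146), and *cdt-1*, a cellodextrin transporter (10.9 at the median, and 1.37-fold above the next library in JW160). *gh3-3* was the exception, with 180 RPKM in FGSC 4469. *gh6-2*, a cellobiohydrolase, and *cdt-2*, another cellodextrin transporter, were named for their correlation with a xylanase over all libraries, which JW160 raised. Their peaks in JW160 entered that choice and are no separate support. *gh6-2* was at 511 RPKM in JW160 and at most 13.5 elsewhere, and *cdt-2* was at 293 RPKM and at most 9.36 elsewhere. The highest level of the list in JW160 was that of *gh6-3*, a GH6 enzyme, at 1615 RPKM, a gene singled out after its values were seen.

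Of 15 further genes of xylan degradation and xylose use, 8 were highest in JW160 and 1, *gh11-2*, was at least 4-fold above the next library in RPKM + 1. The 4 with the highest medians were NCU05627 (166 RPKM at the median and 125 in JW160), *xr*, the xylose reductase (69.2 and 182), NCU00891 (40.1 and 78.6) and *xyk-1*, a xylulokinase (11.9 and 37.7). Of these, *xr* and *xyk-1* were highest in JW160, 1.08-fold and 1.76-fold above the next library, while NCU00891 was second to D117 and NCU05627 was 81st of 108. The 3 remaining xylanase genes of these families were described whatever their level. *gh11-2* was at 368 RPKM in JW160 and at most 5.50 elsewhere, with a median of 0.0448 RPKM over all libraries. *gh10-3* (6.58 RPKM in JW160) and *gh10-4* (1.21 RPKM) were 29th and 14th of 108 there, and their highest libraries were FGSC 2489 (25.6 RPKM) and FGSC 4457 (24.4 RPKM).

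Other regulators of carbon use were above the median of the other libraries in JW160, mostly by smaller differences. All 7 ranked between 1st and 20th of 108, with a median difference of 0.34 on the log2 scale against 0.18 over all genes above 0. The highest value was in JW160 for 2 of the 7 (7.44% over all genes), *vib-1*, a transcription factor gene needed for growth on cellulose (319 RPKM, next 274), and NCU05846 (83.1 RPKM). *rco-1* and *rcm-1*, genes of a corepressor pair, were at 176 and 98.5 RPKM, 15th and 5th of 108, and *prk-10*, a protein kinase gene, was at 46.4 RPKM, 20th of 108. Of 9 genes that respond to the carbon source 0 were highest in JW160. With 7.44% over all genes, a list of this size would hold few or none, so this count says nothing particular to the list. Their median difference from the other libraries was -0.64 on the log2 scale. NCU01633 was at 134 RPKM, next to lowest of the 108, with a median of 385 RPKM over all libraries. *acu-3*, the isocitrate lyase of the glyoxylate cycle, was at 692 RPKM (19th), *acu-5*, the acetyl-CoA synthetase, at 342 RPKM (3rd), and *fbp-1*, the gluconeogenic fructose bisphosphatase, at 92.4 RPKM (90th).

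**Figure D2:**
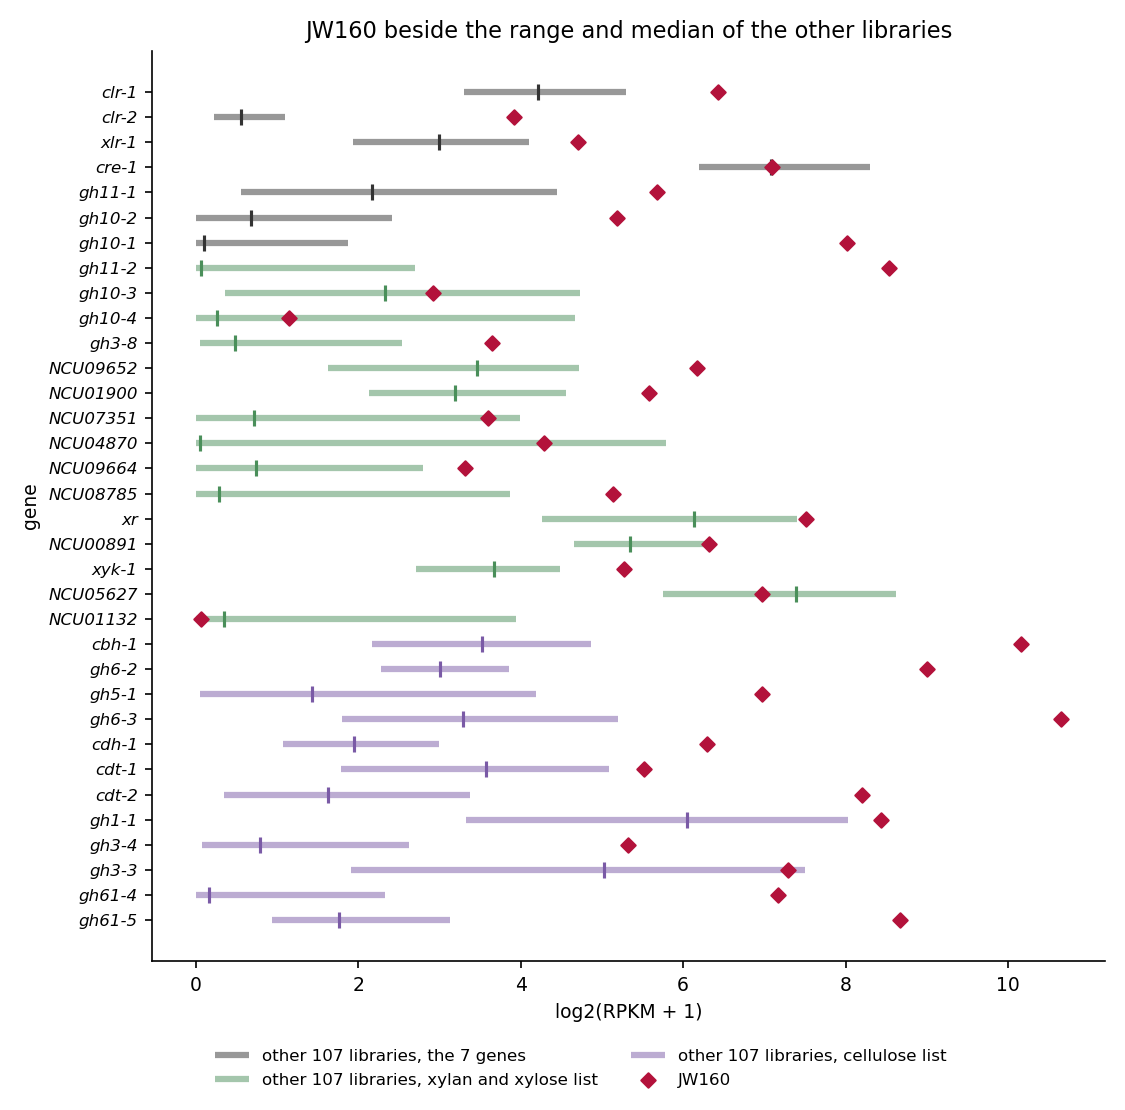
Level in JW160 (red diamond) beside the lowest to highest value (bar) and median (tick) of the other 107 libraries, as log2(RPKM + 1), for the 7 genes and for the genes of the xylan and cellulose lists. The diamond lies to the right of the bar for 6 of the 7 genes, 8 of 15 xylan genes and 11 of 12 cellulose genes, and *cre-1* lies at its median.

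Strain series were compared next, since JW strains and D or FGSC strains are the only groups that the labels give. Of 7985 genes whose mean was 1 RPKM or more, 179 (2.24%) passed limma at an adjusted p of 0.05, 93 higher (1.16%) and 86 lower in the JW libraries. Of the 7 genes, 6 passed the filter and 1, *xlr-1*, was called. *gh10-2* and *gh10-1* passed the filter only through JW160, and without that library 4 of the 7 were tested and 1 was called, again *xlr-1*, against 2.25% of genes. Without JW168 193 genes were called, and *xlr-1* was at 0.37 (adjusted p = 0.0132).

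*xlr-1* was higher in the JW libraries. It ranged from 2.94 RPKM (median 7.20) to 25.2 RPKM in the 72 JW libraries and from 2.83 RPKM (median 5.72) to 9.39 RPKM in the 36 D and FGSC libraries. The groups overlapped widely, with 15 of 72 JW libraries above every D or FGSC library and 56 of 72 above the D and FGSC median. The means were 7.87 ± 3.14 and 5.87 ± 2.03 RPKM (SD, n = 72 and 36), a difference of 0.36 on the log2(RPKM + 1) scale (SE 0.09, limma adjusted p = 0.0136). Without JW160 the difference was 0.34 (adjusted p = 0.0157). The 6 D and 30 FGSC libraries had medians of 5.76 and 5.72 RPKM.

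The difference in *xlr-1* moved with library total. The JW libraries were the deeper, and *xlr-1* had a Pearson's r of 0.36 with the log2 library total over 107 libraries without JW160 (0.15 in the JW and 0.37 in the D and FGSC libraries). Once the model held the log2 total, the difference was 0.28 (adjusted p = 0.154, with 31 genes called). In libraries of 15000000 to 27000000 reads *xlr-1* had a median of 7.37 RPKM in the 46 JW libraries and of 7.74 RPKM in the other 10, and the difference of 0.10 had a 95% interval of -0.16 to 0.35 (adjusted p = 0.814). Among libraries under 15000000 reads 21 JW libraries had a median of 6.40 RPKM and 23 D or FGSC libraries one of 5.43 RPKM, and over 27000000 reads 5 JW libraries had a median of 7.15 RPKM and 3 D or FGSC libraries one of 5.68 RPKM. By limma's voom on the recovered reads the difference was 0.36 (adjusted p = 0.0626). Strain series and library total are confounded in this design and could be separated only in part.

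**Figure D3:**
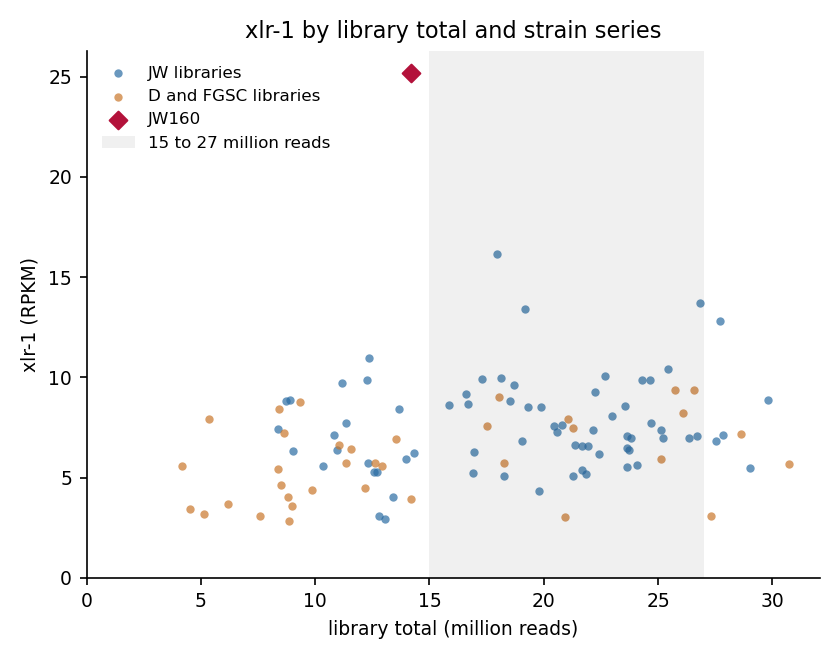
*xlr-1* in RPKM against the library total in units of 1e+06 reads, 1 point per library, coloured by strain series, with the grey band marking totals of 15000000 to 27000000 reads. To the left of the band the medians of the JW and of the D and FGSC libraries are 6.40 and 5.43 RPKM, and within it they are 7.37 and 7.74 RPKM.

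None of the other genes passed the test between series. *gh10-2* was at 0.704 RPKM in the JW and 0.535 RPKM in the D and FGSC libraries at the median, a difference of 0.25 without JW160 and without the filter (SE 0.10, limma unadjusted p = 0.0166 and adjusted p = 0.184). Its 10 JW libraries above the highest D or FGSC library (FGSC 4496, 1.86 RPKM) include JW160. In the same fit *gh10-1* differed by -0.065 (95% interval -0.20 to 0.07, adjusted p = 0.676). With JW160, through which alone they passed the filter, the differences of *gh10-2* and *gh10-1* were 0.31 and 0.04. For *clr-1* the difference was 0.14 (95% interval -0.05 to 0.32, limma adjusted p = 0.426) and without JW160 0.11 (adjusted p = 0.506). For *cre-1* it was 0.09 (-0.04 to 0.23, limma adjusted p = 0.480), and it was 0.09 without JW160 as well. For *gh11-1* it was -0.08 (-0.48 to 0.31, limma adjusted p = 0.865) and without JW160 -0.13 (-0.50 to 0.24, adjusted p = 0.758). In libraries of 15000000 to 27000000 reads the difference of *clr-1* had the other sign, -0.34 (limma unadjusted p = 0.00892 and adjusted p = 0.267). *clr-2*, below the filter, had medians of 0.458 RPKM in the JW and 0.539 RPKM in the D and FGSC libraries, a difference of -0.03 (two-sided permutation test, p = 0.673). Without JW160 this difference was -0.07 (permutation p = 0.0364), and in limma over all 9696 genes its adjusted p was 0.250. In the lists, 0 of 13 tested genes of xylan and xylose use, 0 of 12 cellulose genes, 0 of 7 other regulators and 0 of 9 carbon source genes passed limma in either direction. With 2.24% of all genes called, lists of this size would hold few calls or none, so these counts say nothing particular to the lists.

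Whether the regulators and the enzymes rose and fell together across strains was described by correlations of log2(RPKM + 1), which share library totals and strains and carry no p-value. Over all 108 libraries 11 of the 21 pairs had a Pearson's r above 0.3, and without JW160 4 had. The highest value, 0.80 between *clr-2* and *gh10-1*, was 0.00 without JW160, and that between *gh10-2* and *gh10-1* went from 0.57 to -0.04. The r of *clr-2* with *gh10-2* went from 0.56 to -0.02. Across the other 107 libraries *clr-2* had no r above 0.18 with a xylanase, at a median of 20 reads per library.

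*clr-1* and *xlr-1* had the highest r of the 21 pairs without JW160. Their r was 0.59 over all libraries and 0.51 without JW160 (Spearman's rho 0.51), with 0.40 within the other 71 JW libraries, 0.65 within the 36 D and FGSC libraries and 0.47 given the library total. Of all genes tested, 0.225% had as high an r with *xlr-1* as *clr-1* had, and 2.47% as high an r with *clr-1* as *xlr-1* had. Of the 26 libraries with the most *clr-1*, 10 were among the 26 with the most *xlr-1*, against 1 of the 26 with the least *clr-1*. The overlap was not particular to this pair, since *clr-1* shared 11 such libraries with *cre-1* and 10 with *gh10-2*. *gh10-2* was the xylanase with the highest values beside both, with r of 0.37 with *clr-1* and 0.31 with *xlr-1* without JW160 (rho 0.37 and 0.37). As many as 14.3% of all genes had an r at least as high with *clr-1*, and 7.46% with *xlr-1*, so these values were not unusual. *cre-1* had an r of 0.32 with *clr-1*, which 20.7% of genes reached.

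**Figure D4:**
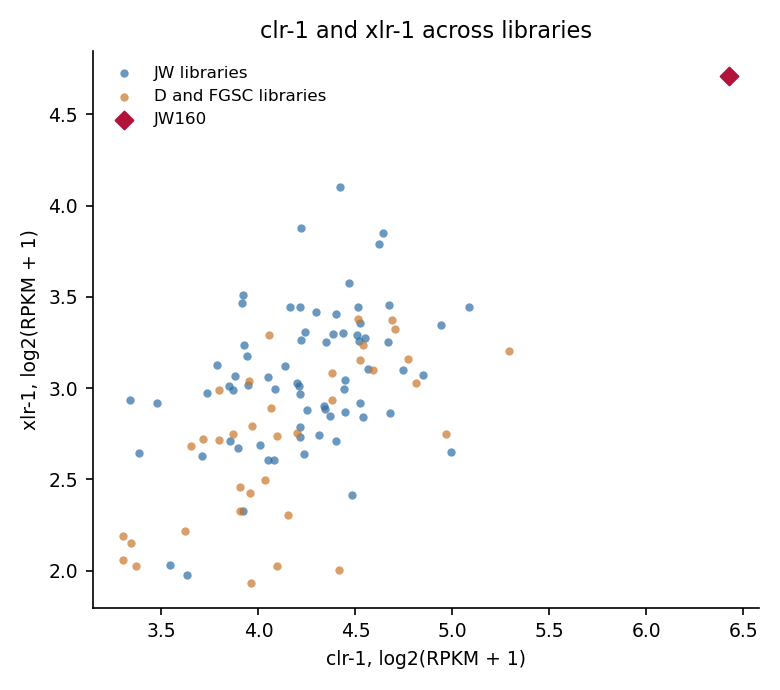
*clr-1* against *xlr-1*, both as log2(RPKM + 1), 1 point per library, coloured by strain series. JW160 is at the upper right, and Pearson's r was 0.59 with it and 0.51 without it.

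High *gh11-1* did not go with high *gh10-2*. Its r with *gh10-2* was 0.02 over all libraries and -0.27 without JW160 (rho -0.28), and 3 of its 26 highest libraries were among the 26 highest of *gh10-2* while 9 of the 26 libraries with the most *gh10-2* were among those with the least *gh11-1*. With *clr-1*, *xlr-1* and *cre-1* its r was -0.13, -0.11 and -0.15 without JW160. Of the 26 libraries with the most *gh11-1*, 11 were among the 26 with the most *xlr-1* and 9 among the 26 with the least, a spread that a single r does not show.

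**Figure D5:**
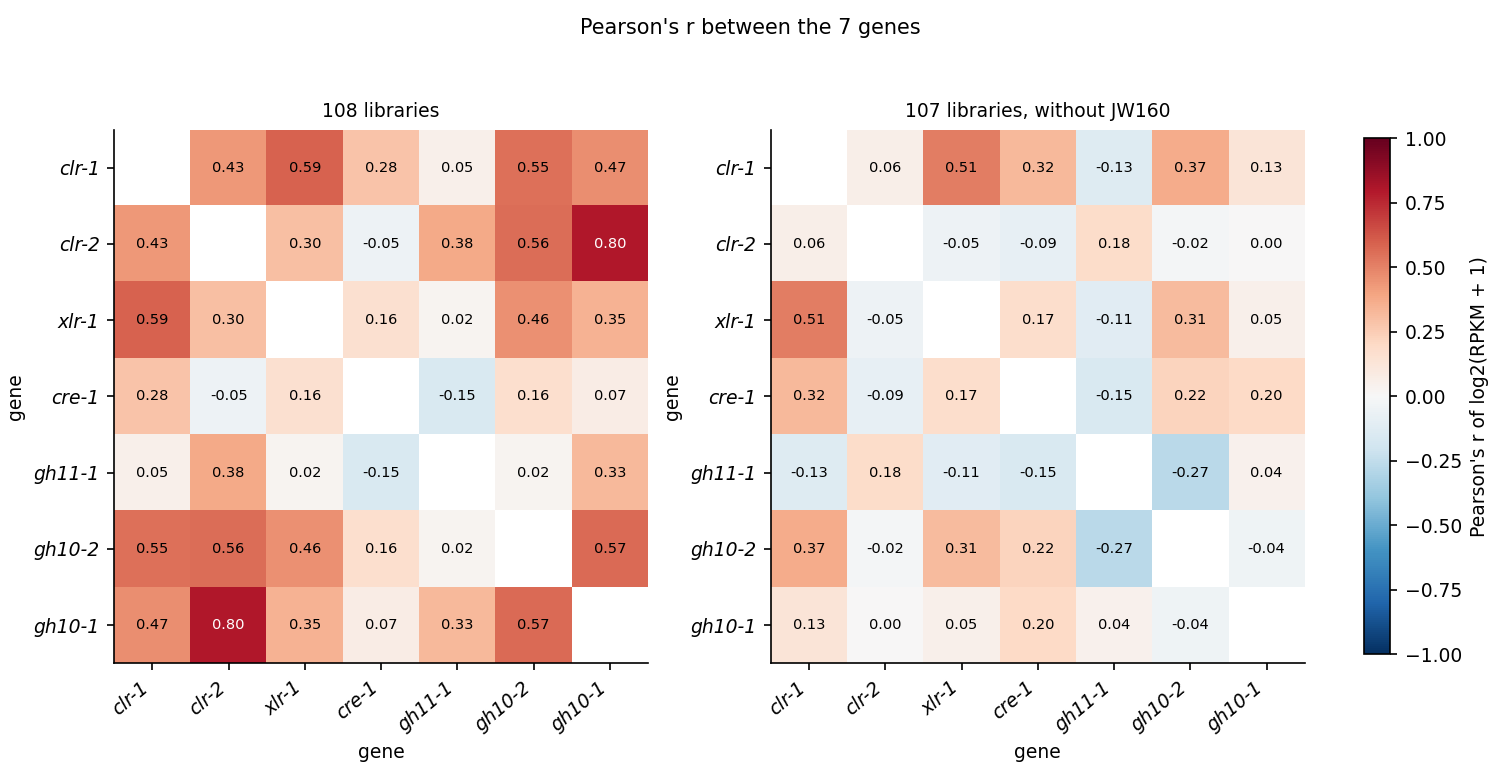
Pearson's r of log2(RPKM + 1) for each pair of the 7 genes, over 108 libraries (left) and over 107 libraries without JW160 (right). The row of *gh10-1*, with values up to 0.80 on the left, lies between -0.04 and 0.20 on the right. *clr-1* with *xlr-1*, at 0.59 on the left, is the highest pair on the right at 0.51.

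Genes with the most similar pattern were named as the 3 with the highest and the 1 with the lowest r over 108 libraries, among the 7985 genes tested. For *clr-2* these were *gh11-2* (0.83), *gh10-1* (0.80) and *cbh-1* (0.76), and for *gh10-1* they were *gh11-2* (0.85), *gh6-2* (0.81) and *cbh-1* (0.78). Without JW160 no r of these 6 pairs exceeded 0.15, and NCU07690, the lowest for both at -0.57, was at -0.19 with *clr-2* and -0.17 with *gh10-1*. For *gh10-2* they were *cdt-2* (0.73), NCU08190 (0.67) and *cbh-1* (0.65), which without JW160 were 0.50, 0.72 and 0.29, and the lowest was *mig-2* (-0.56). NCU08190 is the next gene on the chromosome, and its annotated span overlaps that of *gh10-2* in the NCBI annotation of assembly NC12. The sources used here do not say that reads were counted by strand, so any counted reads from the overlap of *gh10-2* and NCU08190 cannot be told apart. Whether the coding parts of the genes overlap was not examined. NCU08190 had a median of 8.35 RPKM against 0.609 RPKM for *gh10-2*, and it too was highest in JW160, at 31.3 RPKM.

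For the remaining genes the nearest genes kept a high r without JW160 (lowest 0.62, NCU00223 with *xlr-1*), but their ranking changed in part. Without JW160 the nearest gene was NCU01478 (0.68) for *clr-1*, NCU05897 (0.69) for *xlr-1* and NCU11769 (0.74) for *gh11-1*. For *cre-1* it was still NCU09108. The farthest became NCU00660 (-0.53) for *xlr-1* and *gh76-3* (-0.67) for *gh11-1*. The genes named next are those over all 108 libraries. *clr-1* was nearest to NCU02355 (0.69), NCU03741 (0.69) and NCU01478 (0.68), which without JW160 were at 0.65, 0.65 and 0.68, and farthest from NCU07826 (-0.69, or -0.68 without JW160). *xlr-1* was nearest to NCU00223 (0.67), NCU04963 (0.64) and *hgt-1*, a glucose transporter gene (0.64, or 0.66 without JW160), and farthest from NCU03009 (-0.56). *cre-1* was nearest to NCU09108 (0.71), NCU03888 (0.68) and NCU03035 (0.66), and farthest from *ilv-2* (-0.54). *gh11-1* was nearest to *gh61-7*, a polysaccharide monooxygenase (0.66, or 0.62 without JW160), *col-23* (0.66) and NCU11769 (0.66, or 0.74 without JW160), and farthest from NCU03188 (-0.60). None of the 7 genes was among the 3 nearest of *clr-1*, *xlr-1*, *cre-1*, *gh11-1* or *gh10-2*.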

How the data were processed

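The authors deposited 1 table of RPKM for 9733 genes and 112 strains, in which 0 columns were left unused. The submitters' processing notes name Bowtie 0.12.2. For the counting tool, its strand setting and the annotation, the sources used here give nothing. Counts of whole reads, within 0.001 of a read, were recovered from the steps of the RPKM values for 100% of the 9696 genes above 0. Low genes are limited by the library totals, 4174767 to 30748165 reads. Gene lengths were multiples of 3 in 99.9% of genes, hence coding lengths. The recovery, limma and the correlations were checked on simulated data.

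Genes averaging 1 RPKM or more were tested on log2(RPKM + 1) by limma 3.58.1 (R 4.3.3) with its mean-variance trend, two-sided tests and Benjamini-Hochberg adjustment over all genes tested at 0.05. *clr-2* was tested by 100000 permutations. Intervals for single libraries are exact 95% Poisson intervals. Since no strain was cultured again, the spread behind a p-value joins that of strains, of cultures and of libraries. Python 3.11.15, numpy 2.4.6, pandas 2.3.3 and scipy 1.17.1 did the rest.

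The genes and lists were chosen with earlier results of these data known. Named were the 7 genes, the 3 nearest and 1 farthest gene of each, the 4 list genes with the highest median and any past the threshold. Alternatives were other pseudocounts, filters, scalings, library sets, depth as a covariate, array weights and voom. Those without JW160 or JW168, and 1 of depth without a filter, were added after the data were seen. Gene symbols come from NCBI's annotation of assembly NC12 (8914 of 9733 IDs matched). Its coordinates are not given, since its match to the build of the table is not known. No sequence was used here.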

Additional observations from a re-analysis of the deposited data

How the results depend on the processing

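The higher level of *xlr-1* in JW libraries passed the threshold in 14 of 18 alternatives, at 0.23 to 0.42 on the log2 scale, with limma adjusted p-values from 0.00212 to 0.814 over all 18. It did not pass with the log2 library total as covariate (0.28, also without a filter, 0.28), in libraries of 15000000 to 27000000 reads (0.10) or with voom (0.36). In these 4 settings, in this order, 6, 7, 4 and 6 of the 7 genes were tested, and 0 were called. The count of genes called, 179 in the main comparison, was 31 with the total as covariate (30 without a filter as well), 108 with voom, 0 in libraries of 15000000 to 27000000 reads (limma, with 879 at an unadjusted p under 0.05), 330 with quantile normalization, 322 without JW5 and JW7, 289 with each of 112 columns as a library and 784 with array weights. Quantile normalization also turned the split from 93 higher and 86 lower to 127 higher and 203 lower, and the split was 8 and 23 with the total as covariate (6 and 24 without a filter), 27 and 81 with voom and 86 and 93 without JW160. The cause was not tested.

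Differences that never passed the threshold changed sign in libraries of 15000000 to 27000000 reads for *clr-1* (-0.34, adjusted p = 0.267) and *cre-1* (-0.034), with the total as covariate for *gh11-1* (0.087 with and 0.087 without a filter), and for *gh10-1* with a pseudocount of 0.1 RPKM (-0.049), with voom (-0.45) and without JW160 and a filter (-0.065). Of 21 pairs, 11 had an r above 0.3. This was 4 without JW160 (4 without JW168 as well), 3 with Spearman's rho (3 without JW160 as well), 4 in D and FGSC libraries only, 3 without the 2 libraries farthest in the first gene, 3 without JW160 given the library total and 2 in JW libraries without JW160. In the other 7 alternatives it stayed within 1.5-fold of 11. No paired analysis was possible because the labels give the strains of the 2 series no shared replicate numbers. Depth limits *clr-2*, *gh10-2* and *gh10-1*, at medians of 20, 12 and 1 reads per library.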

Other observations

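Outside the lists, JW160 was also highest in other genes, named here by the size of the gap to the next library after their values were seen. *gh61-7* was at 200.1 RPKM (next 9.07), *gh7-1* at 87.2 RPKM (next 3.67) and NCU11801, a gene without a symbol, at 327 RPKM (next 16.8). *gh10-1* had the largest gap of all genes tested, but it was among them only through JW160, so this rank is no separate result. Highest values were not spread evenly over libraries, since FGSC 2489 held the highest value of 783 of 7985 genes tested, JW160 of 600 and FGSC 4457 of 434, while genes at least 4-fold above the next library in RPKM + 1 numbered 0, 31 and 20 in these libraries.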
